A study of Homo sapiens with 3 samples.

Results

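The proteasome subunit genes were taken as those whose platform symbol is PSMA, PSMB, PSMC, PSMD or PSME followed by a number alone, without the interferon-inducible PSMB8, PSMB9 and PSMB10. This gave 36 genes of 18132 genes with a single-symbol probe set on the array, read by 84 probe sets. The role groups hold 40 subunit genes in all. PSMA6, PSMC5, PSMD7 and PSMD13 had no single-symbol probe set in the annotation used here and were not analysed. Of the 36 genes, 34 had a mean signal above the expression floor of 5.94, the median of all probe set values. PSMA8 and PSMB11, known as subunits of testis and thymus proteasomes, lay below it. PSMC3IP and PSME3IP1 carry the same letters but encode interacting proteins, and were left out.

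The RNA came from KYSE150, an established human cell line from an esophageal squamous cell carcinoma. The 3 groups, with 1 array each, were cells given LOXL2 △e13, a splice form of the amine oxidase LOXL2, cells given LOXL2 wildtype, and cells given empty vector. All other conditions named in the labels were shared. Whether the cells were pools or a single clone, and the promoter of the construct, are not given in the sources used here. The probe sets of LOXL2 did not give one picture. The brightest, 11751288_a_at, read 7.41 (△e13), 14.05 (wildtype) and 7.46 (empty vector), so it was above the control with wildtype and not with △e13. Probe set 11718833_a_at read 10.77, 10.22 and 5.06 and 11718834_at read 7.94, 8.07 and 5.38, both higher in each LOXL2 array. Probe set 11718832_a_at read 8.73, 8.32 and 8.81, not above the control in either. Where these probes lie relative to the part of the gene missing in △e13 was not analysed here. The squamous genes KRT5 and DSP read 11.45 to 11.62 and 11.79 to 11.96 over the arrays. Of the marker lists, 6 of 7 measured squamous genes passed the floor, against 1 of 4 for leukocytes (CD68), 0 of 5 for fibroblasts and 1 of 4 for endothelium (PECAM1, 5.86 to 6.22). Among these markers KRT15 differed from the control by -0.83 with △e13 and -0.9999 with wildtype (log2), KRT14 by -0.45 and -0.67, CD68 by -0.37 and -0.53, and DSG3 by 0.19 and 0.34. The part of these differences in the subunit results was not tested. No group had a replicate, so no test could be made. The spread between probe sets of the same subunit gene is given as the measure of error. Its standard deviation (log2), over 67 probe sets of 25 genes, was 0.07 for △e13 and 0.09 for wildtype against the control. Between the LOXL2 arrays it was 0.08. The same spread over all 5962 genes with several probe sets above the floor was larger, at 0.13, 0.16 and 0.13 in that order. It does not hold the spread between cultures. A difference in RNA per cell cannot be told apart from a difference in the cells sampled.

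The proteasome degrades proteins that carry ubiquitin chains. Its 20S core is a barrel of alpha rings, which gate the entry, and beta rings, which hold the catalytic sites. The 19S regulator caps the barrel: an ATPase ring unfolds the substrate, other base subunits bind ubiquitin, and the lid removes the chain. The activators encoded by the PSME genes cap the same barrel without needing ubiquitin. Proliferating cells express these genes abundantly, and the transcription factor NFE2L1 is known to raise many of them together when proteasome capacity is short.

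**Figure D1:**
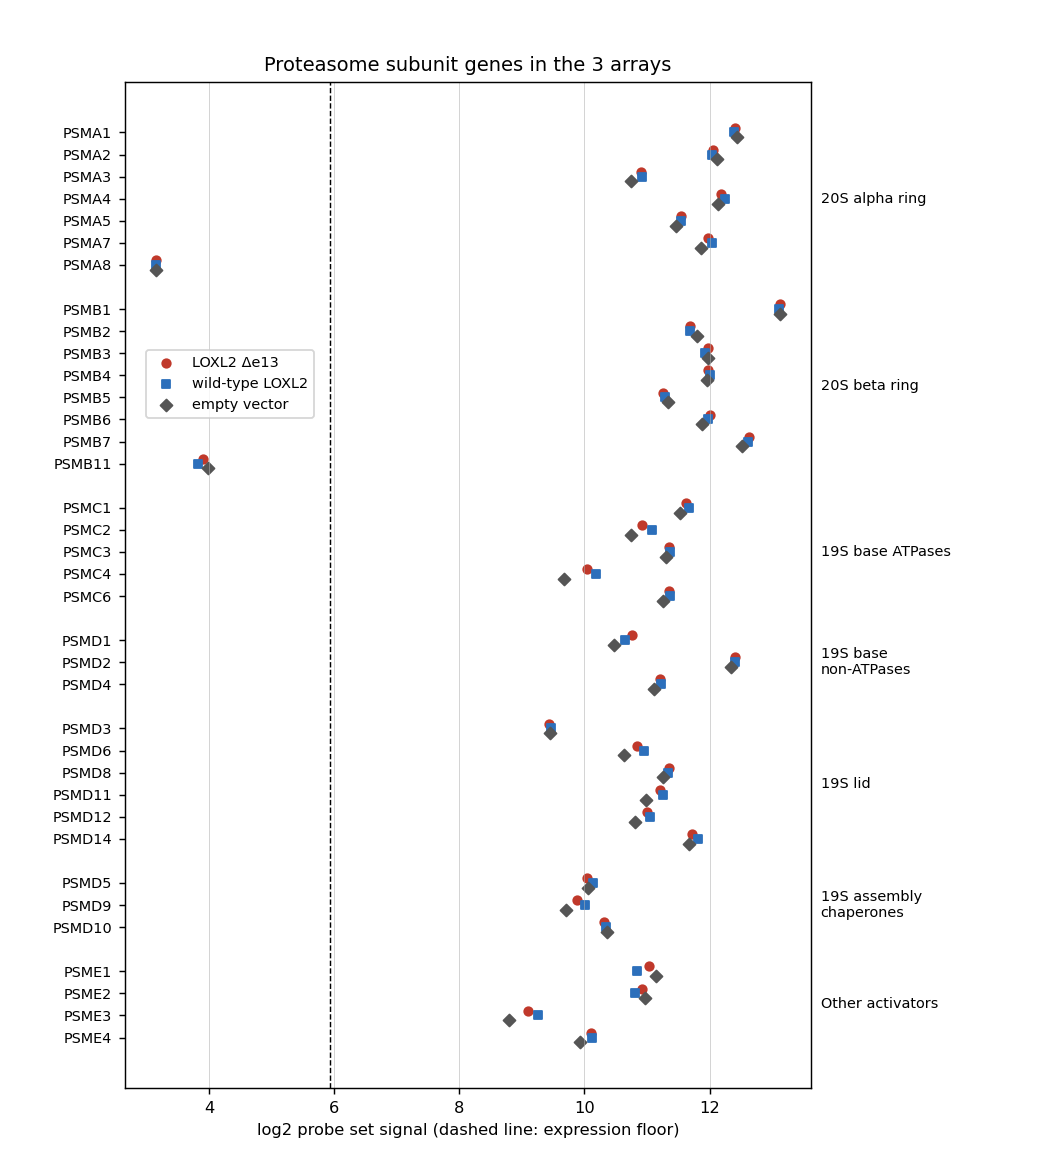
Log2 probe set signal (horizontal axis) of each of the 36 subunit genes in the LOXL2 △e13, LOXL2 wildtype and empty vector arrays, on the probe set with the highest mean, grouped by role; each point is 1 array and the dashed line is the floor of 5.94. Levels of different genes come from different probe sets and are not amounts to be compared; within a gene, the 3 points lie close together, and PSMC4, PSME3 and PSMC2 are the most spread.

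Genes of the 19S regulator were higher in both LOXL2 arrays than in the empty vector array, by small amounts, while genes of the 20S core lay on both sides of the control. With △e13, 13 of 14 measured 19S genes were above the control, with a median log2 difference of 0.10. With LOXL2 wildtype it was 14 of 14, with a median of 0.15; PSMD3, at 0.02 there, turned below 0 under quantile or lowess scaling. Over all 10703 genes above the floor, 48.3% were above the control with △e13 and 50.1% with wildtype, with medians of -0.01 and 0.00. The 34 subunit genes above the floor also read above 7.86, the 75th percentile of all probe set values. Over the 6352 genes with a mean above that level, 48.1% were above the control with △e13 and 54.3% with wildtype. Their medians were -0.01 and 0.02. For the 13 measured core genes the counts above the control were 9 and 7, and the medians 0.02 and 0.05. The count with wildtype was 8 under centring, quantile or lowess scaling. Both core medians are the value of PSMB4 on its brightest probe set, while its other 2 probe sets were below the control. Both comparisons use the same empty vector array, so a deviation of that array would enter both.

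The gap between the core median and the 19S median was -0.08 with △e13 and -0.09 with wildtype. Without the probe sets that carry _s or _x in their name, a choice made after seeing the data, the gaps were -0.15 and -0.19, and with no floor the wildtype gap was -0.15. Other settings narrowed them slightly: quantile normalization gave -0.070 and -0.087, and lowess scaling -0.080 and -0.089. The classes overlapped: core differences reached from -0.10 to 0.16 with △e13, and 6 of 14 19S genes lay above that range. Its upper end was above 84.9% of all genes. With wildtype the core reached from -0.10 to 0.18, and 5 of 14 19S genes lay above it. There the upper end was above 77.5% of all genes. Differences of at least 0.32 on the log2 scale, the size counted here, were few. With △e13 1 gene was that much higher, PSMC4, where 3.33% of all genes were, and 0 were that much lower, where 2.87% of all genes were. With wildtype 4 genes were that much higher, PSMC4, PSME3, PSMC2 and PSMD6, where 10.6% of all genes were, and 0 were that much lower, against 6.84%. These shares, 1 and 4 of 34 genes, are near the background. None of the genes was 1.5-fold higher, where 0.336% of all genes were with △e13 and 1.91% with wildtype, or 2-fold higher, where 0.0467% and 0.14% were.

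**Figure D2:**
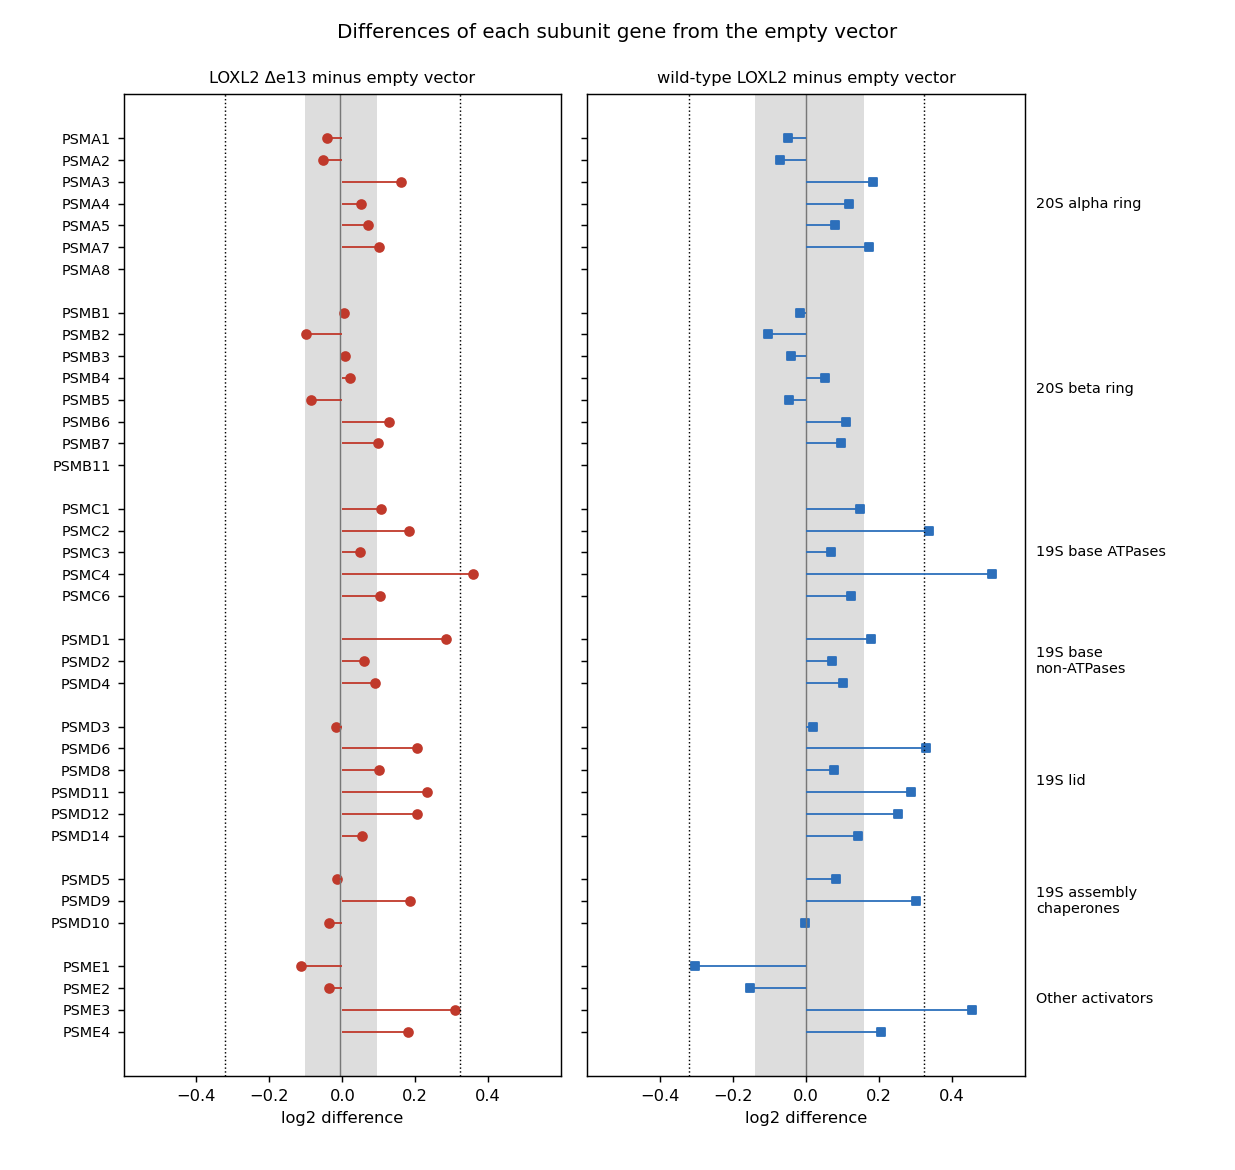
Log2 difference (horizontal axis) of each subunit gene from the empty vector in the LOXL2 △e13 array (left) and the LOXL2 wildtype array (right), with 1 point per gene; the grey band spans the quartiles of all 10703 genes above the floor, the grey line is their median and the dotted lines mark 0.32 in each direction. PSMA8 and PSMB11, below the floor, are not drawn. The 19S genes lie right of 0 except PSMD3 in the △e13 array, and PSME1 and PSME2 lie left of it.

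The alpha ring genes read 10.75 to 12.45 over the arrays for the 6 genes above the floor. PSMA3 had the highest differences of the ring. It read 10.91 in the △e13 array, 10.93 in the wildtype array and 10.75 in the empty vector array, so both LOXL2 arrays were above the control, by 0.16 and 0.18. PSMA7 differed by 0.10 and 0.17, PSMA5 by 0.07 and 0.08, and PSMA4 by 0.05 and 0.12. PSMA1 (-0.04 and -0.05) and PSMA2 (-0.05 and -0.07) were on the other side of the control. The sign for PSMA2 depended on its probe set, since 11757361_x_at gave 0.06 and 0.08. The ring's median was 0.06 with △e13 and 0.10 with wildtype. PSMA8 read 3.15 in each array.

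The beta ring genes above the floor, 7 in number, read 11.26 to 13.13. Their medians were 0.01 with △e13 and -0.02 with wildtype, on either side of 0. The catalytic subunits differed among themselves. PSMB5, which carries the chymotrypsin-like site, read 11.26 with △e13, 11.29 with wildtype and 11.34 with the empty vector. Its 5 probe sets all gave lower values with △e13, between -0.12 and -0.09, and values between -0.05 and 0.07 with wildtype. The shift with △e13 was thus small but alike on every probe set.

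PSMB6, the caspase-like subunit, read 12.001, 11.98 and 11.87 in the same order of arrays, which placed both LOXL2 arrays above the control by 0.13 and 0.11. PSMB7, the trypsin-like subunit, read 12.62, 12.62 and 12.53. Its differences on the brightest probe set were 0.10 and 0.10. Its 4 probe sets above the floor ranged from -0.01 to 0.18 with △e13 and from 0.05 to 0.24 with wildtype. The catalytic subunits therefore did not move as one: PSMB5 lay below the control on its brightest probe set and the other two above it. PSMB2, a structural subunit, read 11.69, 11.69 and 11.79. It was lower on all 3 probe sets, by -0.29 to -0.07 with △e13 and by -0.21 to -0.09 with wildtype. PSMB1, PSMB3 and PSMB4 lay between -0.04 and 0.05 in both LOXL2 arrays on their brightest probe sets. In the wildtype comparison PSMB1 turned above 0 under centring, quantile or lowess scaling. The other probe sets of PSMB4 gave -0.01 and -0.001 with △e13, and -0.02 and -0.07 with wildtype. PSMB11 stayed between 3.82 and 3.99.

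The immunoproteasome subunits, which replace the catalytic ones after interferon exposure, are set beside them here. PSMB8, the counterpart of PSMB5, read 9.88, 9.81 and 10.02, a difference of -0.14 with △e13 and -0.21 with wildtype. PSMB9, the counterpart of PSMB6, read 9.42, 9.22 and 9.56, or -0.14 and -0.34. PSMB10, the counterpart of PSMB7, read 9.19, 9.28 and 9.14, or 0.05 and 0.15. In both LOXL2 arrays PSMB9 lay below the control while PSMB6 lay above it. PSMB10 and PSMB7 were both above it.

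The ATPases of the 19S base, which thread substrates into the core, were all above the control: 5 of 5 measured genes in each LOXL2 array. Their medians were 0.11 and 0.15. Of all genes, 48.3% were above the control with △e13 and 50.1% with wildtype. PSMC4 stood highest of all subunit genes in both comparisons. It read 10.03 with △e13, 10.19 with wildtype and 9.68 with the empty vector. Both LOXL2 arrays were thus above the control, by 1.28-fold with △e13 (0.36) and 1.42-fold with wildtype (0.51). Its second probe set gave 0.37 and 0.50, so its probe sets agreed within 0.01. These differences were above those of 97.6% and 96.8% of all genes.

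PSMC2 read 10.92, 11.08 and 10.74, or 0.18 with △e13 and 0.34 with wildtype. Its dimmer probe set 11758736_at gave 0.05 and 0.34, so its probe sets were alike in the wildtype comparison alone. PSMC1 differed by 0.11 and 0.15, PSMC6 by 0.10 and 0.12, and PSMC3 by 0.05 and 0.07. The last of these was within the probe set spread.

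Of the other base subunits, PSMD1, a large scaffold, read 10.76 with △e13, 10.65 with wildtype and 10.47 with the empty vector. It was the highest of the base non-ATPases, at 0.28 and 0.18, but its second probe set gave 0.05 and 0.09. PSMD4, a ubiquitin receptor, differed by 0.09 and 0.10, and PSMD2, which docks ubiquitin shuttle proteins, by 0.06 and 0.07.

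The lid genes had medians of 0.15 with △e13 and 0.20 with wildtype over 6 genes. PSMD6, a scaffold subunit of the lid, read 10.83, 10.96 and 10.63, so it was higher in both LOXL2 arrays, by 0.21 and 0.33. Its second probe set gave 0.15 and 0.23, which puts the wildtype value below 0.32. PSMD11, another scaffold subunit, read 11.21, 11.26 and 10.98, or 0.23 and 0.29, with 0.22 and 0.25 on its second probe set.

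PSMD12, also a lid scaffold, read 11.01, 11.05 and 10.80, or 0.21 and 0.25. It had the widest spread between probe sets of any subunit gene, from 0.04 to 0.31 with △e13 and from 0.19 to 0.68 with wildtype, all above the control. PSMD14, the lid enzyme that cuts off ubiquitin chains, differed by 0.05 and 0.14, and PSMD8 by 0.10 and 0.08. PSMD3 did not depart from the control, at -0.02 and 0.02. Several probe sets above the floor were present for 11 genes of the 19S regulator, and these were all above the control for 10 genes with △e13 and for 9 with wildtype. None of the 11 had all of them below. For the core these counts were 3 and 3 of 8, with 2 and 2 all below. The same counts over all genes were not made, so no background stands beside them.

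**Figure D3:**
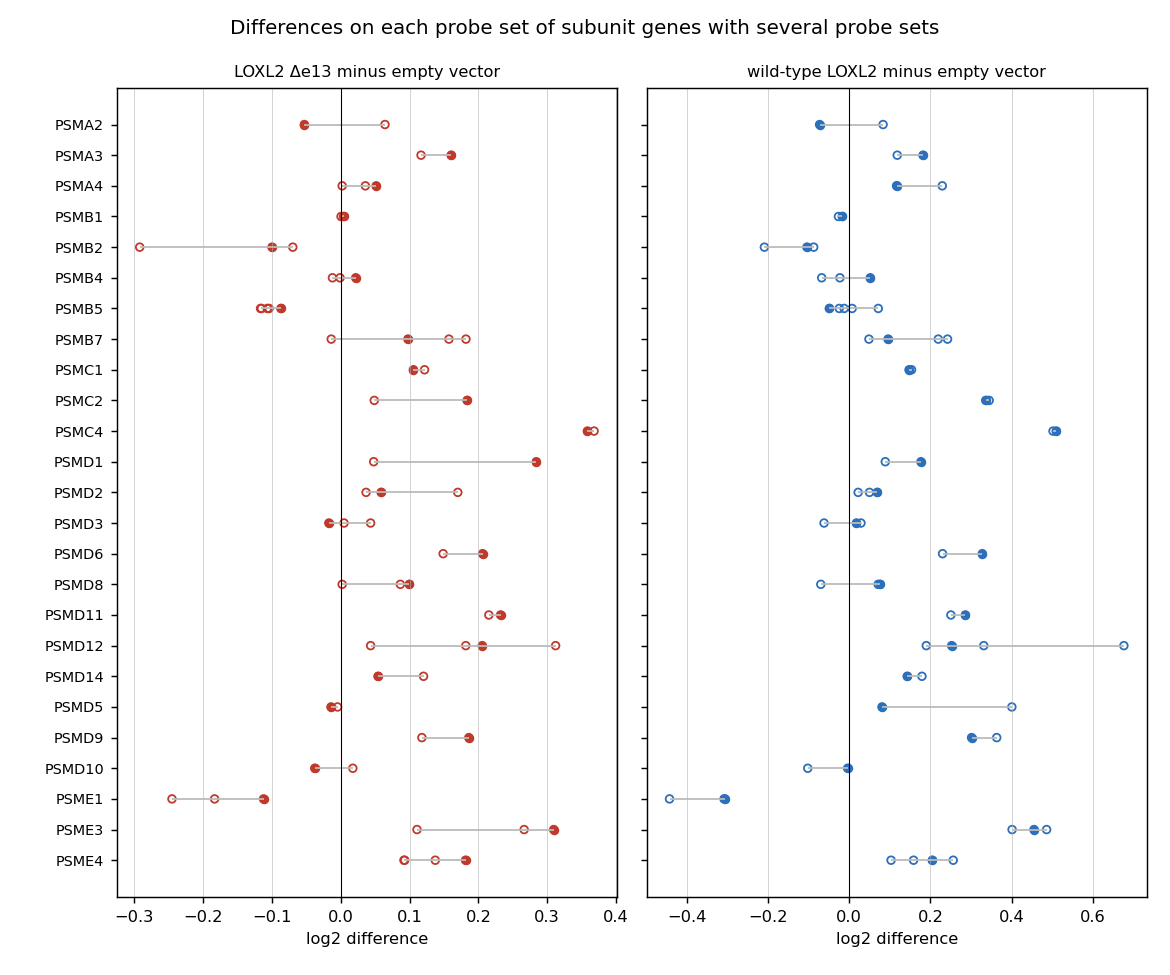
Log2 difference from the empty vector (horizontal axis) on every probe set above the floor, for the 25 subunit genes with more than 1; left, LOXL2 △e13, and right, LOXL2 wildtype, on separate scales. Filled points are the probe set with the highest mean, open points the others, and lines span their range; PSMC4 and PSMC1 are narrow, while PSMD12 and PSMD5 are wide in the wildtype comparison.

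PSMC4, PSMC2 and PSMD6 were the 19S genes past 0.32 with wildtype. With △e13 only PSMC4 was past it, with PSMC2 at 0.18 and PSMD6 at 0.21. The genes were chosen by these same values, and a shared promoter cause was not tested. The sequences just before their starts are shown. They are the last 120 bases before the start annotated in the RefSeq table of GRCh38.p14, for PSMC4 at chr19:39971045-39971164 on the plus strand, PSMC2 at chr7:103347523-103347642 on the plus strand and PSMD6 at chr3:64023495-64023614 on the minus strand. Capitals mark matches to the motifs searched.
PSMC4: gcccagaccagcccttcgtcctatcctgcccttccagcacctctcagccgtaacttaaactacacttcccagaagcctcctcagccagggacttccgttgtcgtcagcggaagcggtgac
PSMC2: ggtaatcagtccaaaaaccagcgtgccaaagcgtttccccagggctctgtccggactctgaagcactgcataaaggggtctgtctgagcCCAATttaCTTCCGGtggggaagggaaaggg
PSMD6: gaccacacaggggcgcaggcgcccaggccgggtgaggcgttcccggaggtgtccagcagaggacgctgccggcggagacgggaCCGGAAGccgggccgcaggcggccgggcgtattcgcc
In the 250 bases before the start, on both strands, the exact letters CCGGAAG, a form of an ETS factor site, were searched. These letters were found in PSMC2, 23 bases before the start, and in PSMD6, 37 bases before it. They were in 5 of 13 19S genes with a promoter in the table (38.5%), 1 of 11 core genes (9.09%) and 14.0% of 15843 protein-coding genes, counting any annotated start. The core match was in PSMA8. The 11 core genes include PSMA8 and PSMB11, both below the floor, and lack PSMA7, PSMB1, PSMB6 and PSMB7, which had no promoter there. The letters CCAAT were in 6 of 13 19S genes (46.2%), 7 of 11 core genes (63.6%), PSMB11 among them, and 40.2% of protein-coding genes. The letters TGACNNNGC, the core of the antioxidant response element that NFE2L1 and NFE2L2 bind, were in 2 of 13 19S genes (15.4%), 2 of 11 core genes (18.2%) and 14.7% of protein-coding genes. Over all 31 of 36 subunit genes with a promoter in the table they were in 9 (29.0%), the others being PSMD5, PSMD9, PSME1, PSME2 and PSME4. PSMC4 held none of the exact letter strings searched in its 250 bases. Other forms of these sites, such as GGAA with other flanking letters, were not searched. Of the 41 matches in subunit genes to these letters and to CACGTG, described with PSME3, 0 overlapped a match to another motif. A match is a description of the letters, not of binding.

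The assembly chaperones of the 19S base lay on both sides of the control. PSMD9 read 9.89, 10.003 and 9.70, above the control by 0.19 and 0.30. PSMD10, also called gankyrin, was at -0.04 and -0.0037, and the sign of the latter changed with the scaling. PSMD5 read 10.05, 10.14 and 10.06. It was at -0.01 and 0.08 on this probe set, and at -0.0046 and 0.40 on 11739153_a_at, so its probe sets differed in the wildtype comparison.

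The activators of the PSME group split by kind. PSME3, the nuclear activator REG gamma, read 9.10 with △e13, 9.25 with wildtype and 8.80 with the empty vector, and so was higher in both LOXL2 arrays, by 1.24-fold (0.31) and 1.37-fold (0.46). Its 3 probe sets ranged from 0.11 to 0.31 and from 0.40 to 0.49. PSME4, the activator PA200, differed by 0.18 and 0.21, and its 4 probe sets above the floor were all above the control.

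PSME1 and PSME2, which form the interferon-inducible activator PA28, were lower. PSME1 read 11.04, 10.85 and 11.15, or -0.11 with △e13 and -0.31 with wildtype. The latter was just short of the size counted. Its 3 probe sets were all below the control, down to -0.25 and -0.44. On the brightest probe set it was the lowest of the subunit genes above the floor in both LOXL2 arrays against the control. PSME2 read 10.93, 10.81 and 10.96, or -0.04 and -0.15. Only the wildtype difference of PSME2 exceeded the probe set spread of the subunit genes, and it did not exceed that of all genes, 0.16.

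The starts of PSME3 and PSME1 are shown because these activators lay at opposite ends. The 120 bases before the start are at chr17:42833277-42833396 for PSME3 and at chr14:24136074-24136193 for PSME1, both on the plus strand of GRCh38.p14 in the RefSeq table, with motif matches in capitals.
PSME3: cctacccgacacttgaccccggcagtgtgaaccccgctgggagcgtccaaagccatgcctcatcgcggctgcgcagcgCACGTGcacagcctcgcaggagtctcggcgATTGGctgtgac
PSME1: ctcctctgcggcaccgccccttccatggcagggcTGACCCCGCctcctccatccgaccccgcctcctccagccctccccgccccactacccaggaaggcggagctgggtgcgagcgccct
PSME3 held CACGTG (the E-box, found in 3 of the 31 subunit genes and 9.73% of protein-coding genes) 42 bases before its start and the reverse complement of CCAAT 12 bases before it. PSME1 held a match to TGACNNNGC 86 bases before its start.

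The direct comparison of △e13 with LOXL2 wildtype gave smaller differences. Of the 14 19S genes, 12 were lower with △e13, with a median of -0.04, where 54.7% of all genes were lower and the median of all genes was -0.02. Over the 6352 genes with a mean above 7.86, as the subunit genes are, the median was -0.03, nearer that of the 19S genes. Of those, 39.6% were higher with △e13, against 45.0% of all genes. For the core the median was 0.00, and 6 of 13 genes were lower. None of the 34 genes differed by 0.32 on its brightest probe set, in a comparison where 1.85% of all genes were that much higher and 2.55% that much lower. The lowest were PSMC2 and PSMC4, at -0.15 each, and PSME3, also at -0.15. PSME1, at 0.19, and PSME2, at 0.12, were the highest, followed by PSMD1 at 0.11. PSME1 was above wildtype on all 3 of its probe sets. This comparison shares an array with each of the others.

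**Figure D4:**
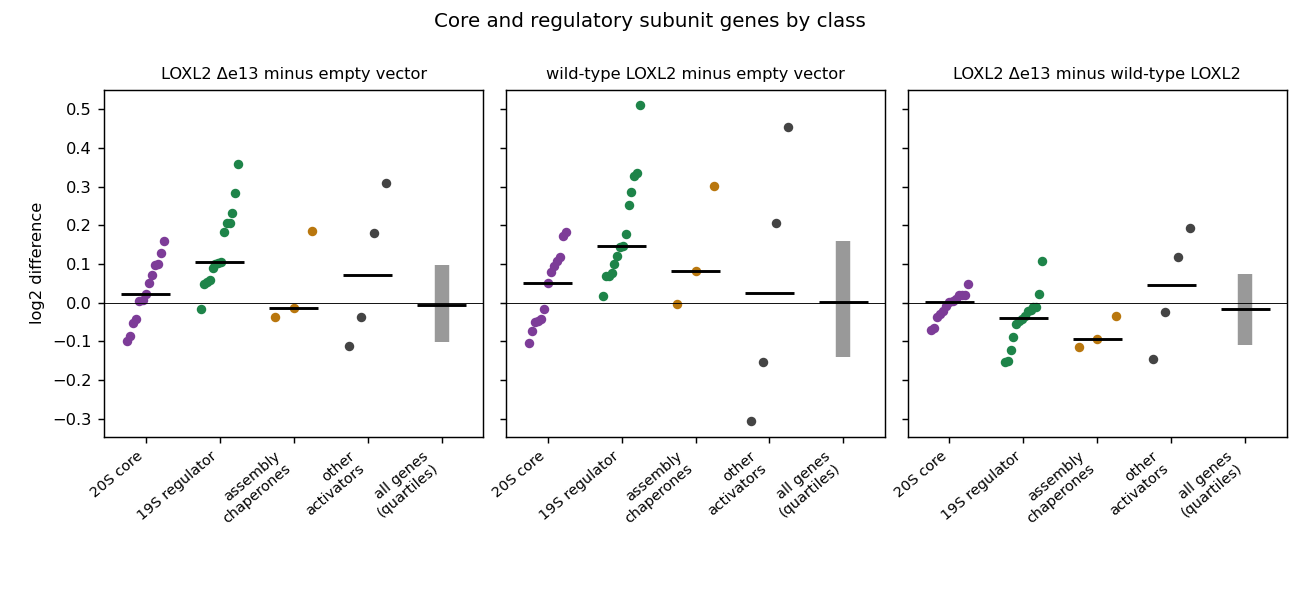
Log2 differences (vertical axis) of subunit genes above the floor by class, in the 3 comparisons; each point is 1 gene, ordered by value within its class, black bars are medians, and the grey bar spans the quartiles of all 10703 genes above the floor. The 19S median is 0.10 and 0.15 above the empty vector and -0.04 against wildtype, while the core median stays between 0.00 and 0.05.

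Other genes of the pathway were read from lists. Proteasome-associated proteins were above the control in 9 of 9 measured genes in both LOXL2 arrays, with medians of 0.09 and 0.13. Over all genes above the floor, 48.3% were above the control with △e13 and 50.1% with wildtype. Some of the 9 were near 0 with △e13 and split by probe set. These include USP14 (0.01, 2 of 4 probe sets higher), ECPAS (0.01, 1 of 2) and ZFAND5 (0.05, 4 of 9). With wildtype ECPAS (0.06, 1 of 2) and ZFAND5 (0.06, 4 of 9) were split as well, while USP14 (0.13) was higher on 4 of 4. ZFAND2A, a stress-inducible protein that binds the proteasome, read 9.67, 9.74 and 8.94, which is 1.65-fold higher with △e13 and 1.73-fold higher with wildtype on its 1 probe set. It was the one gene of that list past 0.32. ADRM1, a ubiquitin receptor of the 19S base that lies outside the name rule, differed by 0.21 and 0.22, all 3 probe sets higher. The deubiquitinase UCHL5, which ADRM1 recruits, differed by 0.09 and 0.29, with 6 of 6 probe sets higher. UBE3C, a ubiquitin ligase on the proteasome, was at 0.0034 and 0.23, with 1 of 2 probe sets higher in each LOXL2 array.

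Proteasome assembly factors act on the core except PAAF1, a chaperone of the 19S ATPases. Their medians were 0.01 and 0.07, with 3 and 4 of 6 above the control. The shares over all genes were 48.3% and 50.1%. PSMG1 read 10.45, 10.66 and 10.24, or 0.22 and 0.42. PSMG3, a chaperone of the alpha ring, was at 0.03 and 0.17. PSMG2, the partner of PSMG1 in assembling the alpha ring, was on the other side at -0.11 and -0.14. POMP, the assembly chaperone of the beta ring, differed by 0.14 in each.

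Regulators of proteasome genes had medians of 0.02 and 0.06 over 7 genes, with 4 and 4 above the control. Those counts are near the shares over all genes, 48.3% and 50.1%. NFE2L1 itself read 8.84, 8.80 and 8.92, or -0.07 and -0.12, on 4 of 4 probe sets below the control. Its mRNA level was therefore not higher in either LOXL2 array; its protein processing was not measured. MAFF, a small partner of NFE2L factors, was at -0.01 and -0.36, and MAFG at 0.25 and 0.17. VCP, the ATPase that extracts NFE2L1 from the membrane, was at 0.02 and 0.16 on its brightest probe set. Only 1 of its 4 probe sets was above the control in each LOXL2 array. MAFF was the gene of this list past 0.32, with wildtype. DDI2, the protease that activates NFE2L1, lay below the floor.

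Ubiquitin genes and shuttle factors had medians of 0.04 and 0.05, with 4 and 4 of 7 above the control. Those counts too are near the 48.3% and 50.1% of all genes. SQSTM1, the autophagy receptor that also carries ubiquitinated cargo, read 12.04, 12.19 and 11.67, or 1.29-fold and 1.43-fold higher, with 5 of 5 probe sets higher in each. It was the one gene of this list past 0.32. UBA1, the main ubiquitin-activating enzyme, was at -0.07 and -0.22. UBQLN4, a shuttle factor, was at 0.10 and 0.185.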

How the data were processed

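Total RNA was labelled with biotin and hybridised to PrimeView human arrays, 1 per group, per the labels' protocols. The authors deposited log2 signals per probe set, made with the RMA method according to the submitters' processing notes; the log2 scale was read from the values. RMA makes the arrays' distributions alike, so a shift shared by most genes would not show. Array medians were 5.95, 5.93 and 5.95, and the number of arrays limits the precision.

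Symbols came from the platform annotation, updated through Entrez IDs in RefSeq (GRCh38.p14); 44988 of 49293 non-control probe sets had 1 symbol. The brightest probe set, by its mean in the 3 arrays, stood for a gene, which entered counts and medians if that mean reached the floor. Differences are between log2 values; with 1 array per group there is no test. All members are accounted for, and those past 0.32 (log2), the catalytic subunits and those with the widest probe set spread are given in full, as are up to 3 genes or those past 0.32 of each related list; others named were chosen after their values were seen. Members, lists and rules were chosen with earlier results of these data known. The calculations were tested on simulated data, with Python 3.11.15, numpy 2.4.6, pandas 2.3.3 and statsmodels 0.14.6.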

Additional observations from a re-analysis of the deposited data

How the results depend on the processing

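The settings changed were the probe set choice (the median of all of a gene's probe sets), the floor (none, or the 75th percentile, 7.86), the scaling (centring, quantile normalization, lowess with span 0.3) and the size counted (1.5-fold, 2-fold). Leaving out probe sets with _s or _x in their name was chosen after seeing the data. The count higher than the control was 0 with △e13 and 0 with wildtype at 1.5-fold and at 2-fold. Without the _s and _x probe sets the core median was 0.0021 with △e13 and -0.012 with wildtype, its gap to the 19S median was -0.15 and -0.19, and 1 gene, PSMD5, was lower by at least 0.32 with △e13 than with wildtype. Between the LOXL2 arrays the core median was -0.0074 with the median over probe sets and -0.0097 with centring. The cause was not tested. The 19S medians stayed between 0.10 and 0.15 with △e13 and between 0.14 and 0.18 with wildtype over 7 alternatives. The gap between core and 19S medians stayed between -0.15 and -0.07 with △e13, and between -0.19 and -0.09 with wildtype. No paired analysis was possible because each group has 1 array.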
